A study of Mus musculus with 4 samples.

Results

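Aminoacyl-tRNA synthetases are the enzymes that join each amino acid to its tRNA before translation. ATF4 is a transcription factor whose mRNA is translated mainly when the initiation factor eIF2alpha is phosphorylated, as happens when amino acids are scarce or proteins misfold, and mTORC1 also promotes ATF4 synthesis in growing cells. ATF4 induces genes for amino acid synthesis, amino acid uptake and cytosolic tRNA synthetases, together with stress effectors that slow growth, so these genes form a known link between mTOR, amino acid supply and protein synthesis. The 37 genes described here were chosen by name: 19 cytosolic tRNA synthetases and 18 ATF4-related genes, out of 54021 gene symbols in the count table. The 18 comprised 3 transcription factors, 8 enzymes of asparagine, serine, mitochondrial one-carbon and proline synthesis, 4 stress effectors and 3 genes of amino acid transport.

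The tissue was the reconstituted ovary (rOvary), which grows from fetal primordial germ cells mixed with the somatic cells of the same female gonads, taken from C57BL/6 crosses carrying an actin-GFP transgene, and placed under the kidney capsule. All recipients were ovariectomized G2 Terc-/- females, second-generation telomerase RNA knockouts that age prematurely, with an average age of 10 weeks at grafting. Grafts were collected 4 weeks later from recipients that drank water with INK128, an inhibitor of the mTOR kinase in both of its complexes (2 libraries, INK128 replicates 1 and 2), or without it (2 libraries, control replicates 1 and 3). The Terc deletion was in the host, and graft cells came from other donors, so both groups shared the host genotype, the surgery and the graft site.

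The libraries held 19130209 to 23029089 counted reads each. Levels are given as CPM, reads scaled to a TMM-adjusted library size, in the order INK128 replicate 1, INK128 replicate 2, control replicate 1, control replicate 3. Differences are log2 fold changes of INK128 against control with standard errors (SE) from edgeR, fitted to all 11758 genes whose mean CPM exceeded 10. A gene was called where the Benjamini-Hochberg adjusted p was below 0.05 and the change exceeded 1.5-fold. The labels do not say that each library is a separate animal, so p-values measure the spread between these libraries only.

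The controls stood apart from each other. Ovarian markers were present in every library, with the inhibin subunit Inha at 4067, 5893, 1680 and 2858 CPM, while the oocyte growth factor Gdf9 was at 454, 264, 256 and 7.13 CPM and the steroidogenic enzyme Cyp11a1 at 879, 1157, 70.6 and 4032 CPM. Of the 10 granulosa cell markers, which include Inha, 5 had positive and 5 negative log2 fold changes. Between the controls 7 of these 10 differed by more than 2-fold, beside 14.2% of all genes tested. All 8 theca, luteal and steroidogenic markers did so too, from 3.78-fold for Insl3 to 76.65-fold for Ptgfr, with 57.1-fold for Cyp11a1. The summed level of 8 Sertoli cell markers was 1762 CPM in control replicate 1 against 74.9 to 164 CPM elsewhere, all 8 genes were highest there, and 4 Y-linked genes together had 1021 reads in that library and 0 to 2 in the others, although the methods describe female gonads. Summed over 25 genes, kidney tubule markers reached 209 and 355 CPM in the INK128 libraries against 1575 and 3016 CPM in the controls, and the sum of 17 immune cell markers was 623 and 577 against 1108 and 1518 CPM. Their part in the results that follow was not tested. In such bulk tissue, fewer cells of a type cannot be told apart from less RNA per cell.

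ATF4 binds with C/EBP proteins to a composite element that holds the letters TGATGNAA. This motif, searched on both strands, was found in the RefSeq promoter window (250 bases before to 49 bases after the start base, build GRCm38.p6) of 10 of the 28 members with a window. That was 35.7% of these members, against 4.51% of the 27025 genes with a window, and is a description only, since genes are often listed as ATF4 targets because such sites are known. The CRE motif TGACGTCA, which shares only part of its letters with the first, occurred in 0 of the 28 members and in 2.03% of all genes. No window was matched for Cars, Hars, Lars, Nars, Rars, Vars, Wars, Aldh1l2 and Slc7a5. The 8 sites below were chosen to show the motif in synthetases, in biosynthetic enzymes and in a transporter gene beside the genes with the lowest and highest changes among the holders. Each is written 5′ to 3′ on the strand where the motif reads as spelled, with the motif in capitals.

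Yars, chr4:129189895-129189924, plus strand: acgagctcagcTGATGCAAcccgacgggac
Gars, chr6:55037960-55037989, minus strand: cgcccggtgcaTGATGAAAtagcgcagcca
Iars, chr13:49682126-49682155, minus strand: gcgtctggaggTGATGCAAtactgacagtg
Tars, chr15:11399655-11399684, plus strand: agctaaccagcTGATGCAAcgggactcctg
Asns, chr6:7693214-7693243, minus strand: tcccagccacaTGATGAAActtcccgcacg
Pycr1, chr11:120643833-120643862, minus strand: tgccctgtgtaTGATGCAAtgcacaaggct
Trib3, chr2:152344028-152344057, plus strand: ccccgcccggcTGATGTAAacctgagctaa
Slc7a11, chr3:50443661-50443690, minus strand: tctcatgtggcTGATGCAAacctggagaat

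The other holders were Aars, with 2 matches, and Chac1, and Slc7a11 held a second match on the opposite strand. Most matches lay close to the start. Read along the gene's own strand and counted from the RefSeq start base as 0, the match began at 3 in Yars, -23 in Asns, -30 in Gars (where the motif is on the opposite strand) and -103 in Pycr1. The 9 holders with a fitted change did not move one way: 6 had positive and 3 negative log2 fold changes, from -2.46 in Trib3 to 1.09 in Pycr1, with a median of 0.12. The 18 members whose windows lacked the motif had 12 positive and 6 negative values and a median of 0.20.

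**Figure D1:**
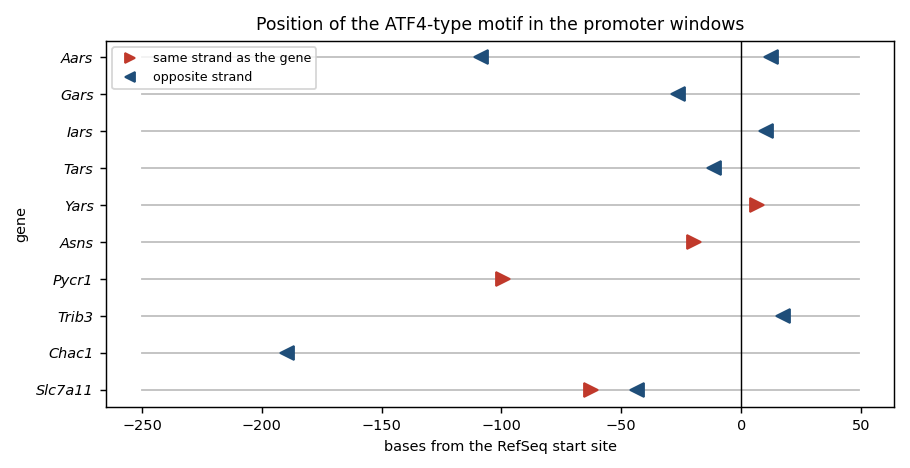
Position of the ATF4-type motif in the promoter windows of the 10 genes that hold it, in bases from the RefSeq start site (x axis), one row per gene. Grey lines are the windows searched and triangles the matches, pointing right where the motif reads on the strand of the gene. Most matches lie close to the start, and Chac1 has the farthest.

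No member was called in the comparison of INK128 with control. By edgeR, 0 of the 32 members above a mean CPM of 10 rose and 0 fell, against 3.18% of all genes tested called up and 3.19% called down, and 7 of the 32 (21.9%) had an unadjusted p below 0.05, beside 36.4% of all genes tested. DESeq2 called 4 members up (Cars, Sars, Atf4 and Atf5) and 1 down (Sesn2), with 13.6% of all genes up and 15.1% down, and limma voom called 0 members and 0 genes. Of the other 5 members, Aldh1l2, Pycr1, Trib3 and Slc7a11 had a mean CPM between 1 and 10 and were fitted with all 17631 genes above a mean CPM of 1, where edgeR called 0 genes (lowest adjusted p 0.0555) and 2 of the 4 had an unadjusted p below 0.05. DESeq2 called Trib3 of these 4 down, with 10.2% of these genes called up and 13.6% down. Chac1 had a mean below 1 CPM and was not tested. In 16 of the 32 tested members both INK128 libraries lay above both controls, beside 34.5% of all genes tested, and in 4 both lay below, beside 34.0%. The plot of levels by library shows the synthetases close together, and a wide gap between the controls for some biosynthetic and stress genes (3 of 8 and 2 of 4 differed by more than 2-fold between them).

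**Figure D2:**
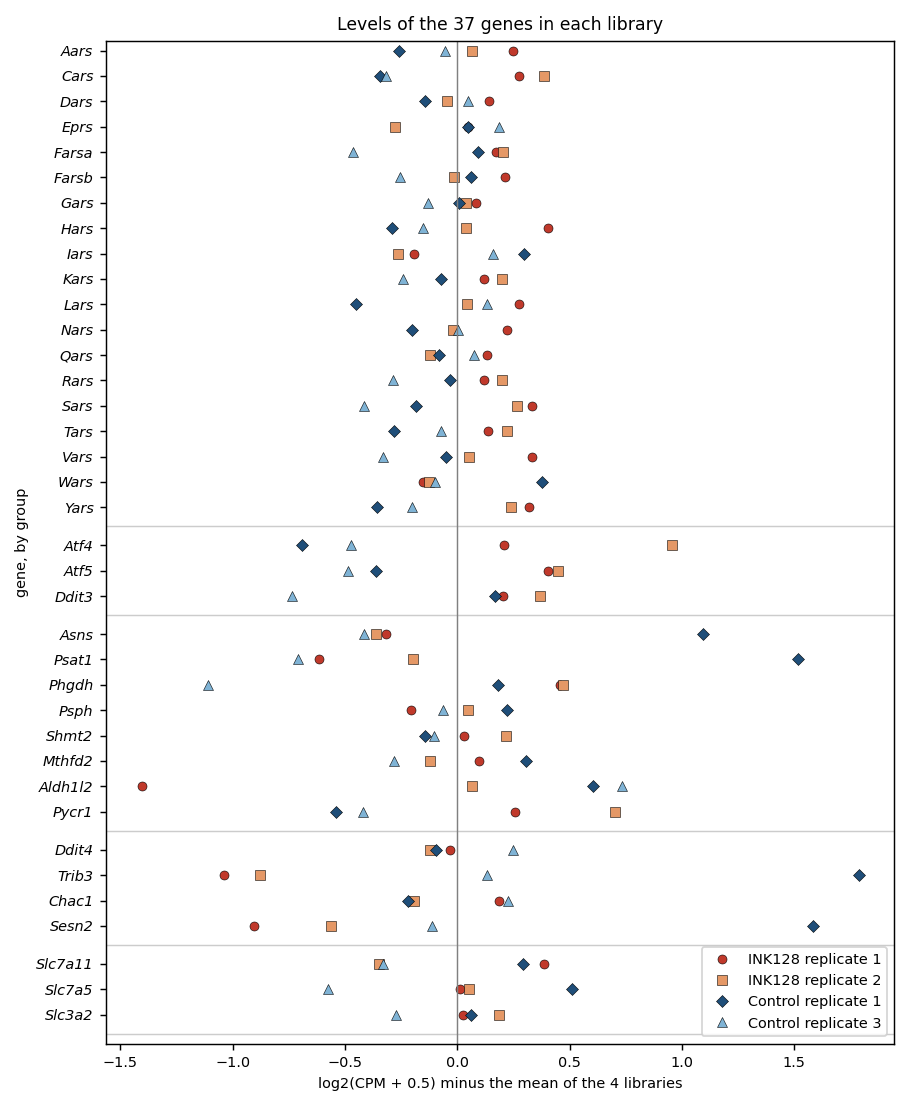
Level of each of the 37 genes in the 4 libraries, as log2(CPM + 0.5) minus the mean of the libraries (x axis), one row per gene, in blocks from top to bottom of synthetases, transcription factors, synthesis enzymes, stress effectors and transport genes. Red and orange symbols are the INK128 libraries and blue symbols the controls. The synthetases stay within about 0.5 of their mean, while control replicate 1 lies far to the right for Asns, Psat1, Trib3 and Sesn2.

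The cytosolic tRNA synthetases were slightly higher with INK128 as a group. Of 19 genes, all of them tested, 16 had a positive and 3 a negative log2 fold change, with a median of 0.31 beside -0.03 for all genes tested, and their summed level was 1852 and 1696 CPM in the INK128 libraries against 1541 and 1527 CPM in the controls. The sum over all genes tested was also higher with INK128, at 1004000 and 1036000 against 926100 and 932400 CPM. None of the 19 passed the test by edgeR (adjusted p from 0.0805 to 0.971), 4 (21.1%) had an unadjusted p below 0.05, beside 36.4% of all genes tested, and DESeq2 called 2 up and 0 down, beside 13.6% and 15.1% of all genes. In 11 of the 19 both INK128 libraries lay above both controls, in 3 both lay below, and in 5 the groups overlapped, beside 34.5% of all genes tested above and 34.0% below. No synthetase differed by more than 2-fold between libraries of the same group, whereas 14.2% of all genes tested did so between the controls.

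Cars, which charges cysteine tRNA (chr7:143557230-143600090), showed the largest increase, with 43.2, 46.6, 27.9 and 28.5 CPM. Its 2 controls were almost equal and both lay below the INK128 libraries, a log2 fold change of 0.67 (SE 0.18, edgeR adjusted p = 0.0805, DESeq2 adjusted p = 0.0276). Sars, the serine enzyme, was at 153, 146, 106 and 90.7 CPM and the groups did not overlap (0.60, SE 0.18, edgeR adjusted p = 0.0890, DESeq2 adjusted p = 0.0253). Yars, the tyrosine enzyme, was at 75.8, 71.6, 47.3 and 52.8 CPM (0.56, SE 0.17, edgeR adjusted p = 0.0951), again without overlap. Iars, which charges isoleucine tRNA, went the other way with 58.7, 55.8, 82.5 and 74.9 CPM, both INK128 libraries lying below both controls (-0.46, SE 0.17, edgeR adjusted p = 0.126).

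Most of the remaining synthetases had smaller positive differences. The log2 fold change was 0.46 for the histidine enzyme Hars, 0.39 for the valine enzyme Vars, and 0.35 for both Tars (threonine) and Farsa (a subunit of the phenylalanine enzyme), whereas the other phenylalanine subunit, Farsb, was at 0.19. The lysine enzyme Kars and the alanine enzyme Aars were at 0.32, the arginine enzyme Rars at 0.31 and the leucine enzyme Lars at 0.30. Smaller still were the values of Nars (asparagine) at 0.20, Gars (glycine) at 0.12, Dars (aspartate) at 0.10 and Qars (glutamine) at 0.01. The remaining negative values belonged to the tryptophan enzyme Wars, at 65.1, 66.3, 94.2 and 67.6 CPM (-0.30, edgeR adjusted p = 0.369), where only control replicate 1 stood well above the rest, and to Eprs, the joined glutamate and proline enzyme (-0.23, edgeR adjusted p = 0.432).

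The value of Eprs, whose merged GENCODE exons sum to 18102 bases, depended on how exon length was treated. With offsets that removed the smooth trend of counts with exon length in each library, its log2 fold change was 0.47, and the values of Farsb and Gars turned from small positive to -0.05 and -0.02. With these offsets 15 of the 19 synthetases were positive, the median was 0.38 and 0 genes of the whole table were called by edgeR. With library totals in place of TMM the median was 0.19 beside -0.15 for all genes. In the GENCODE annotation, exons of Aars and Exosc6 overlap on the same strand over 14.3% of the Aars exon length. Farsb overlaps Sgpp2, and Hars overlaps Hars2, on opposite strands. How reads in such overlaps were counted is not known. The counting used RefGene genes, and its strand setting is not given in the sources used here.

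**Figure D3:**
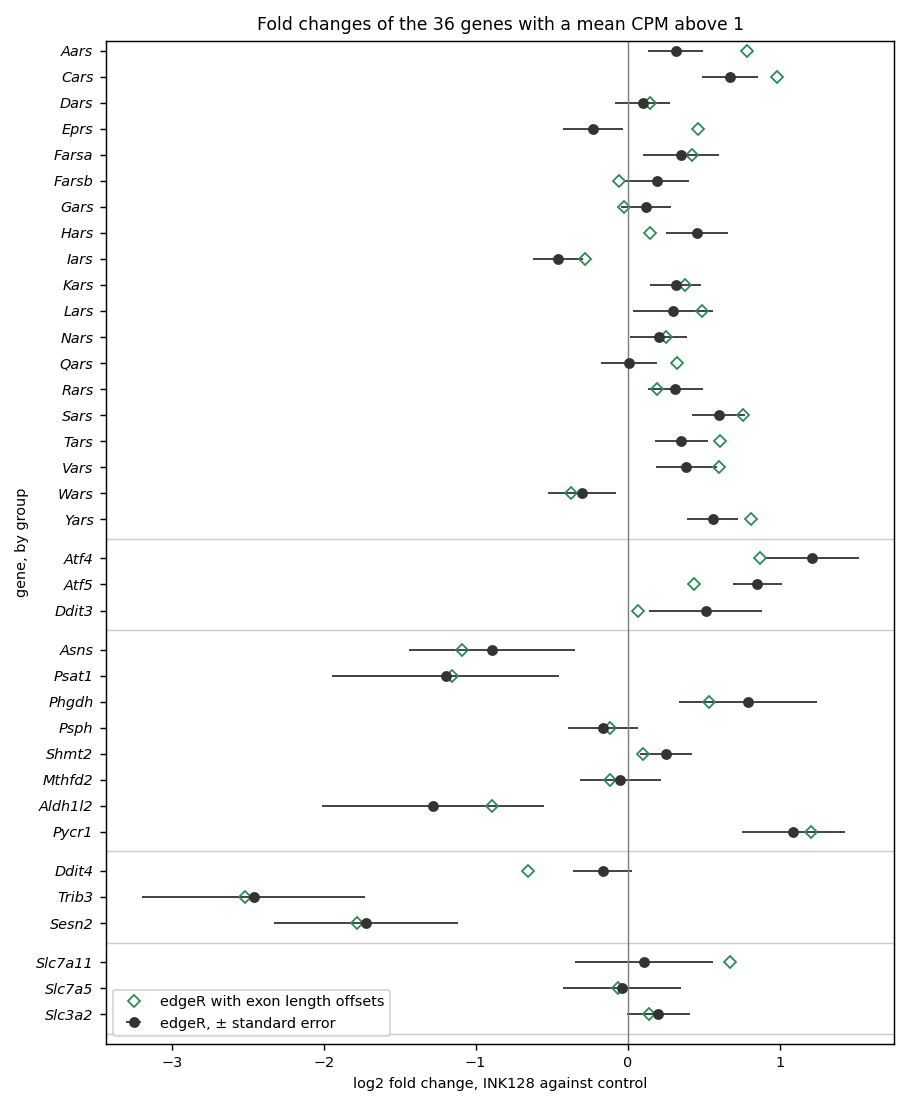
log2 fold change of INK128 against control (x axis) for the 36 genes with a mean CPM above 1, one row per gene in the same blocks. Filled points with bars are the edgeR value and its standard error, and open diamonds the value with exon length offsets. All but Eprs, Iars and Wars among the synthetases are positive in the first fit, and Trib3 and Sesn2 are the lowest values of the plot.

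The transcription factors Atf4, Atf5 and Ddit3 were all higher with INK128 without overlap of the groups, as were 34.5% of all genes tested, and none passed the edgeR test. Atf4 (chr15:80255184-80257541) was at 205, 345, 110 and 127 CPM, a mean of 275 ± 99.1 against 119 ± 12.5 (SD, n = 2 each). The controls were close together, and INK128 replicate 2 was well above replicate 1, at a log2 fold change of 1.21 (SE 0.31, edgeR adjusted p = 0.0710, DESeq2 adjusted p = 0.00335). Since ATF4 is controlled largely in translation, its mRNA level does not give the level of the protein, which was not measured here.

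Atf5 (chr7:44812256-44816658), a related factor also translated under eIF2alpha phosphorylation, had the smallest adjusted p of the members. Its levels were 139, 143, 81.5 and 74.7 CPM, a mean of 141 ± 2.85 against 78.1 ± 4.79 (SD, n = 2 each). The INK128 libraries nearly coincided, and the log2 fold change was 0.85 (SE 0.16, edgeR adjusted p = 0.0513, DESeq2 adjusted p = 0.000257). With exon length offsets the change of Atf5 was 0.44 (edgeR adjusted p = 0.182) and that of Atf4 was 0.87 (edgeR adjusted p = 0.175). Atf5 shares 4.11% of its exon length with Nup62 and Il4i1 on the opposite strand.

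Ddit3, which encodes the stress factor CHOP, was at 25.2, 28.2, 24.5 and 12.9 CPM. Control replicate 1 lay just under the INK128 libraries and control replicate 3 far under them (0.51, SE 0.37, edgeR adjusted p = 0.359). Without control replicate 1 the change was 1.05 and without control replicate 3 it was 0.12.

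Amino acid synthesis enzymes had values on both sides of 0. Of the 6 enzymes tested, 2 had positive and 4 negative log2 fold changes, with a median of -0.10, and none had an unadjusted p below 0.05 by edgeR, while DESeq2 and limma voom also called 0. The sign of this median depended on 1 library: it was 0.26 without control replicate 1 and -0.31 without control replicate 3. Asns, which makes asparagine, was at 14.2, 13.8, 38.6 and 13.2 CPM, and Psat1, the transaminase of serine synthesis, at 31.4, 42.2, 139.5 and 29.4 CPM. For both genes control replicate 3 lay at the level of the INK128 libraries or below it, and control replicate 1 alone was high. The log2 fold changes were -0.89 for Asns (SE 0.55, edgeR adjusted p = 0.294) and -1.20 for Psat1 (SE 0.75, edgeR adjusted p = 0.300). Without control replicate 1 they turned to 0.08 and 0.32.

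Phgdh, the enzyme that opens the serine pathway, was at 111, 112, 91.9 and 37.2 CPM, with the INK128 libraries nearly equal and above both controls (0.79, SE 0.45, edgeR adjusted p = 0.265). The value was 1.59 without control replicate 1 and 0.28 without control replicate 3. Here control replicate 3 was the low one. Psph, the phosphatase that completes serine synthesis, was at 25, 29.9, 33.8 and 27.7 CPM (-0.16). Its exons overlap a transcript of Cct6a on the opposite strand. Shmt2, which passes a carbon from serine to folate in mitochondria, was at 60.6, 69.1, 53.6 and 55.3 CPM without overlap (0.25, edgeR adjusted p = 0.336), and Mthfd2, the next folate enzyme, was at 53.0, 45.5, 61.2 and 40.6 CPM with overlap (-0.05).

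The enzymes with a mean below 10 CPM had 120 to 288 reads a library for Pycr1 and 16 to 130 for Aldh1l2. Pycr1, the last step of proline synthesis, was at 9.61, 13.2, 5.31 and 5.82 CPM, with both INK128 libraries above both controls (1.09, SE 0.34, edgeR adjusted p = 0.109, DESeq2 adjusted p = 0.0669). Aldh1l2, a mitochondrial folate dehydrogenase, was at 0.859, 3.27, 4.96 and 5.48 CPM, and its INK128 libraries were the least alike of all members (-1.28, SE 0.73, edgeR adjusted p = 0.277). A share of 14.1% of its exon length overlaps D10Wsu102e on the opposite strand.

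Stress effectors held the lowest values of all members. Sesn2 (chr4:132492032-132510501), a leucine sensor that restrains mTORC1, was at 15.2, 19.5, 87.8 and 26.8 CPM. Both controls lay above both INK128 libraries, control replicate 1 by far, and the log2 fold change was -1.72 (SE 0.61, edgeR adjusted p = 0.121, DESeq2 adjusted p = 0.0213). Trib3 (chr2:152337422-152344032), a pseudokinase induced by ATF4 and CHOP that binds AKT, was at 1.18, 1.38, 11.4 and 3.29 CPM in the same order of libraries, a log2 fold change of -2.46 (SE 0.73, edgeR adjusted p = 0.101, DESeq2 adjusted p = 0.0187). Without control replicate 1 the difference shrank to -0.63 for Sesn2 and -1.30 for Trib3, with no call by edgeR (adjusted p = 0.0633 and 0.0507), whereas without control replicate 3 both were called down, at -2.34 and -3.09. Ddit4, which encodes the mTORC1 inhibitor REDD1, was at 82.2, 77.0, 78.5 and 99.9 CPM with overlap (-0.16, edgeR adjusted p = 0.561). Chac1, which degrades glutathione, was at 0.805, 0.506, 0.487 and 0.843 CPM, above the 0.127 to 0.161 CPM that 3 reads give but too low for a fit.

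**Figure D4:**
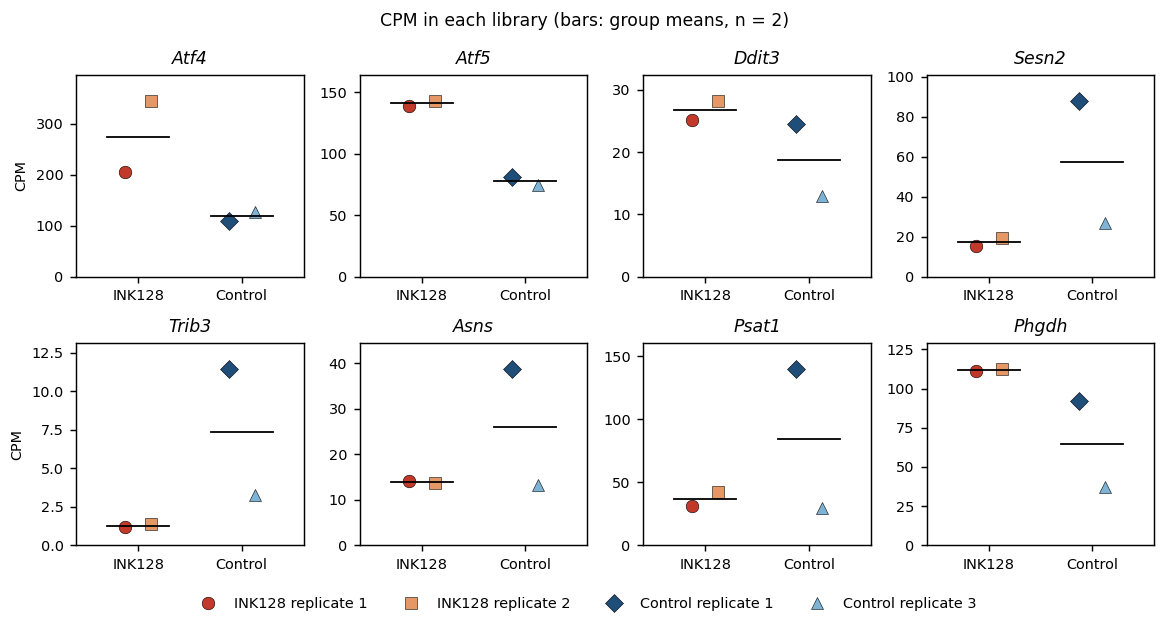
CPM (y axis, from 0, a separate scale in each panel) of 3 transcription factors, 2 stress effectors and 3 synthesis enzymes in each library, with INK128 on the left and control on the right of each panel. Symbols are single libraries and bars the means of 2. Atf4 and Atf5 separate the groups, whereas control replicate 1 stands far above the other libraries for Asns, Psat1, Sesn2 and Trib3, and control replicate 3 lies above both INK128 libraries for Sesn2 and Trib3 but not for Asns and Psat1.

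Amino acid transport genes overlapped between the groups. Slc7a5, the light chain of the leucine transporter LAT1, was at 228, 233, 321 and 151 CPM, so that the equal INK128 libraries lay between the 2 controls (-0.04, SE 0.39, edgeR adjusted p = 0.953). Slc3a2, the heavy chain that carries LAT1 and the cystine transporter to the membrane, was at 248, 277, 254 and 202 CPM (0.20, SE 0.20, edgeR adjusted p = 0.50). Slc7a11, the cystine exchanger, was at 9.82, 5.70, 9.16 and 5.78 CPM (0.11, SE 0.46, edgeR adjusted p = 0.882), and its libraries paired across the groups rather than within them.

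The ATF4-related genes varied mainly between the controls. Of their 13 tested genes, 6 had positive and 7 negative log2 fold changes, with a median of -0.04 that was 0.32 without control replicate 1. Between the controls 5 of the 13 (38.5%) differed by more than 2-fold, beside 14.2% of all genes tested, and between the INK128 libraries 0 of the 13 did, beside 1.25%. Control replicate 1 was the highest library for 6 of the 13, or 46.2%, beside 25.8% of all genes, and INK128 replicate 2 for another 6, beside 24.8%.

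Leaving out each control moved the calls in different directions, with the lone control library assumed to vary like the INK128 pair. Among the 32 members above 10 CPM, edgeR without control replicate 1 called 8 up (Cars, Farsa, Sars, Atf4, Atf5, Ddit3, Phgdh and Slc7a5) and 0 down, while 22.7% of all genes were called up and 23.2% down. Without control replicate 3 it called 5 of the 32 up (Cars, Lars, Yars, Atf4 and Atf5) and 3 down (Asns, Psat1 and Sesn2), while 21.2% of all genes were called up and 21.4% down. Cars, Atf4 and Atf5 were in both lists of rises, at 0.66, 1.11 and 0.92 in the first fit and 0.68, 1.32 and 0.79 in the second. Both fits used the same 2 INK128 libraries, so they are not independent. The share of all genes that rose in both was not counted. In the fit of genes above a mean CPM of 1, edgeR also called Pycr1 up without control replicate 1 (1.03, adjusted p = 0.0249), where 21.6% of all genes were up and 23.4% down. Without control replicate 3 that fit called Pycr1 up (1.16, edgeR adjusted p = 0.0142) and Trib3 down (-3.09, edgeR adjusted p = 2.99e-05), where 19.4% of all genes were up and 21.5% down. Among the members above 10 CPM, Phgdh had the largest change without control replicate 1 (1.59, edgeR adjusted p = 9.45e-05), and Sesn2 without control replicate 3 (-2.34, edgeR adjusted p = 6.47e-06). Slc7a5 was at 0.61 in the first fit and -0.48 in the second. Without either INK128 library edgeR called 0 members and 0 genes, and at an adjusted p below 0.1 with all libraries it called Cars, Sars, Atf4 and Atf5 up.

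Levels of the members were compared between genes as CPM per kilobase of exon, and their order depended on the group. In the INK128 libraries Atf4 had the highest mean level at 116.5, followed by Slc3a2 at 74.3, Atf5 at 70.8 and Slc7a5 at 62.2. In the controls Slc3a2 at 64.6 and Slc7a5 at 63.7 came first, with Ddit4 at 50.8 and Atf4 at 50.3 next and Atf5 at 39.2. Among the synthetases Gars and Nars were the highest in both groups, at 31.6 and 32.1 with INK128 and 29.1 and 27.9 in the controls. Cars was the lowest synthetase in the controls at 4.28 and Eprs with INK128 at 6.30. These ranks rest on merged GENCODE exon lengths, 6583 bases for Cars and 18102 for Eprs, whereas reads were counted on RefGene genes. Without division by length, Eprs was at 126.9, 101.2, 127.1 and 139.9 CPM and was not among the lowest synthetases. Chac1, at 0.401 and 0.406, and Slc7a11, at 0.558 and 0.537, were among the lowest members in both groups.

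For the related lists that follow, the shares of all genes tested are 3.18% up and 3.19% down by edgeR, 13.6% up and 15.1% down by DESeq2, and 36.4% with an unadjusted p below 0.05. In a list of 6 related genes (the synthetases Mars and Tarsl2, the complex scaffold genes Aimp1, Aimp2 and Eef1e1, and the tRNA exporter Xpot), edgeR called 1 up and 0 down, DESeq2 called 2 up and 1 down, 4 had an unadjusted p below 0.05, 4 were positive, and the median log2 fold change was 0.48. Aimp1, a scaffold of the complex that is also secreted as a cytokine, rose: it was at 104, 104, 50.9 and 53.3 CPM, with pairs that were nearly identical within groups (0.998, SE 0.16, edgeR adjusted p = 0.0464). The scaffold Aimp2 was at 42.6, 56.2, 28.0 and 18.6 CPM (1.08, edgeR adjusted p = 0.0805), but 29.4% of its exon length overlaps Eif2ak1 on the opposite strand.

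The mitochondrial tRNA synthetases were called in neither direction. Of the 17 genes 14 were tested, edgeR called 0 and DESeq2 called 0, 0 had an unadjusted p below 0.05, and the median was 0.17 with 9 positive and 5 negative values. Lars2, the leucine enzyme, was at 855, 260, 230 and 300 CPM, so INK128 replicate 1 alone was high (1.07, edgeR adjusted p = 0.254), and without that library its change was -0.04.

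Upstream of ATF4, the list of eIF2alpha kinases, their phosphatase and eIF2B held 16 tested genes, of which edgeR called 0, DESeq2 called 1 up and 1 down, and 5 had an unadjusted p below 0.05. The median was 0.12. The largest positive value was that of Eif2b3, a subunit of the exchange factor eIF2B, at 27.9, 25.8, 16.4 and 16.1 CPM (0.72, edgeR adjusted p = 0.0931). The 5 eIF2B subunits, singled out after their values were seen, all had both INK128 libraries above both controls, with log2 fold changes of 0.33 to 0.72 (edgeR adjusted p from 0.0931 to 0.297), beside 34.5% of all genes tested with that order of libraries. With exon length offsets their values ran from -0.099 for Eif2b2 to 1.03 for Eif2b3. The kinase PKR, encoded by Eif2ak2, was the lowest at 15.5, 14.4, 25.4 and 49.2 CPM (-1.32, edgeR adjusted p = 0.0848). PKR is also an interferon-induced gene, and the summed immune cell markers moved the same way, whose part was not tested. Of the 4 kinase genes, PKR, PERK (Eif2ak3, -0.74) and GCN2 (Eif2ak4, -0.80) lay below the controls in both INK128 libraries and HRI (Eif2ak1, 0.04) did not, beside 34.0% of all genes tested that lay below.

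Other known targets and partners of ATF4 gave no common direction. Of 27 genes 22 were tested, with 11 positive and 11 negative and a median of -0.01, and edgeR called 0 up and 1 down, DESeq2 3 up and 2 down, with 6 at an unadjusted p below 0.05. The 1 that fell was Bcat1, the cytosolic branched-chain amino acid transaminase, at 55.6, 49.4, 163 and 151 CPM (-1.58, SE 0.17, edgeR adjusted p = 0.0464), with controls that lay close together. Among 12 tested genes of other one-carbon and nucleotide folate enzymes, mostly cytosolic but with the mitochondrial enzyme Gldc, edgeR called 0 up and 1 down, DESeq2 0 up and 4 down, 5 had an unadjusted p below 0.05, and the median was -0.11. Mtr, the methionine synthase, fell from 61.0 and 52.6 CPM in the controls to 24.5 and 23.4 CPM (-1.25, SE 0.19, edgeR adjusted p = 0.0464). Among 18 endoplasmic reticulum chaperones and targets of ATF6 and XBP1 edgeR called 0 up and 1 down, DESeq2 0 up and 3 down, 4 had an unadjusted p below 0.05, and the median was 0.00. Atf6, the membrane-bound stress factor, fell from 93.2 and 86.8 to 45.9 and 37.4 CPM (-1.11, SE 0.19, edgeR adjusted p = 0.0486). With exon length offsets none of these 4 changes was called: Aimp1 was at 1.22, Bcat1 at -1.12, Mtr at -0.82 and Atf6 at -0.65 (edgeR adjusted p = 0.0804, 0.0839, 0.104 and 0.133).

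**Figure D5:**
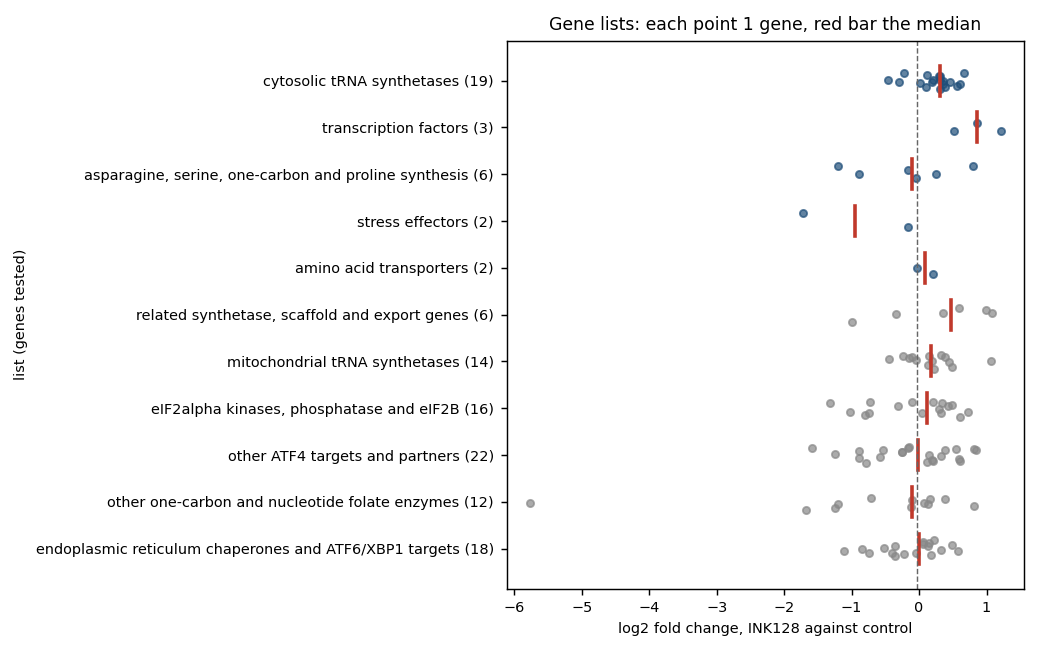
log2 fold change of INK128 against control (x axis) of every tested gene in the 5 member groups (blue points) and 6 related lists (grey points), with the number of genes tested in parentheses. Red bars are the list medians and the dashed line the median of all genes tested, -0.03. The synthetase median of 0.31 lies to its right, and the lists of other ATF4 targets and of endoplasmic reticulum chaperones lie on it.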

How the data were processed

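Polyadenylated RNA was sequenced from 4 rOvary libraries. The authors ran Trimmomatic on the reads, then HISAT2 against the mm10 genome and featureCounts on RefGene genes, and deposited raw counts per gene symbol in 1 table, with no normalization. The strand setting and the versions of these read processing tools are not given in the sources used here.

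Groups were taken from the sample labels, and samples were not paired. From the counts, genes with a mean CPM above 10 by library totals were kept (11758 of 54021), TMM factors (0.944 to 1.05) were set on them, and INK128 was compared with control by the quasi-likelihood test of edgeR (4.0.16, R 4.3.3), with limits of 0.05 on the adjusted p and 1.5 on the fold change. The study's methods use DESeq2 (here 1.42.0), which was run as an alternative, as was limma voom (3.58.1). Members with a mean CPM of 1 to 10 were fitted with all 17631 genes above 1. The common dispersion was 0.0949. Exon lengths were summed over merged GENCODE exons (GRCm38), available for 99.5% of the genes tested, and promoter windows came from RefSeq (GRCm38.p6). Scripts were tested on simulated data. All 37 members were named, with the value in every library for those described, the called genes (or else the largest rise and fall) of each related list, and some markers among the most abundant of their lists. A result under this rule is not reported here. Members and lists were chosen with earlier results of these data known. A dose of 0.75 uM per g is given in the labels for INK128, and the methods state it in another form. With 2 libraries a group, the spread between libraries limits the precision.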

Additional observations from a re-analysis of the deposited data

How the results depend on the processing

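With 2 libraries a group, and controls that stood apart from each other, the number of calls depended strongly on the setting, while the members' directions mostly held. The cause of each shift was not tested. In place of 374 genes up and 375 down by edgeR, DESeq2 gave 1595 up and 1772 down, limma voom 0 and 0, upper quartile factors 567 up, library totals 580 down, a CPM above 10 in all 4 libraries 803 up and 717 down, a mean CPM above 1 gave 0 and 0, no filter 1152 up and 1953 down, exon length offsets 0 and 0, GC content offsets 236 down, and an adjusted p below 0.1 gave 1540 up and 1591 down. Leaving out 1 library gave 0 to 2664 genes up and 0 to 2723 down, with 0 in both directions without INK128 replicate 1 or 2, 2664 up and 2723 down without control replicate 1, and 2493 up and 2518 down without control replicate 3.

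In place of 0 members in both directions (of the 32 above 10 CPM, except with no filter), DESeq2 gave 4 up and 1 down, upper quartile factors, a CPM above 10 in all 4 libraries and TMM over all genes (an alternative chosen after seeing the data) 1 up each, which was Atf5, no filter 2 up and 2 down, and an adjusted p below 0.1 gave 4 up. Leaving out 1 library gave 0 to 8 up and 0 to 3 down. The synthetase median of 0.31 was 0.19 with library totals, 0.39 with GC content offsets and 0.21 to 0.30 with 1 library left out, and was positive under every alternative run. The median of the ATF4-related genes was -0.034 to 0.32 with 1 library left out, with the high end reached without control replicate 1.

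Some values changed sign. With library totals Dars was at -0.021, Gars at -0.00041, Qars at -0.11 and Slc7a11 at -0.062. With exon length offsets Eprs was at 0.47, Farsb at -0.054 and Gars at -0.022. Qars was at -0.0063 with a CPM above 10 in all 4 libraries. Mthfd2 was at 0.014 with upper quartile factors, 0.0065 with a mean CPM above 1 and 0.071 with GC content offsets. Slc7a5 was at 0.064 by limma voom, 0.025 with upper quartile factors, 0.018 with a mean CPM above 1, 1.56e-05 with no filter and 1.42e-05 with TMM over all genes. With 1 library left out, the values ranged from -0.011 to 0.20 for Dars, -0.13 to 0.12 for Qars, -1.47 to 0.076 for Asns, -1.92 to 0.32 for Psat1, -0.31 to 0.28 for Mthfd2, -0.33 to 0.019 for Ddit4, -0.35 to 0.48 for Slc7a11, -0.48 to 0.61 for Slc7a5 and -0.039 to 1.68 for Lars2. Size factors by relative log expression changed no direction and no call of a named gene. No paired analysis was possible because the groups share only 1 replicate number.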

Other observations

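Single stress genes outside the 37 were highest in control replicate 1, as Trib3 and Sesn2 were. These genes were picked after their values were seen, from the list of other ATF4 targets. Of its 27 genes 8 (29.6%) were highest in control replicate 1, and of the 22 tested 5 (22.7%), beside 25.8% of all genes tested. Atf3 and Gdf15 are not among the 22. Both shares lay near that of all genes, so the list as a whole did not stand out in that library. Atf3, a stress-induced factor, was at 3.01, 4.55, 13.6 and 4.34 CPM in INK128 replicates 1 and 2 and control replicates 1 and 3, and the stress cytokine Gdf15 was at 0.429, 0.690, 5.71 and 0.970 CPM. Gpt2, the mitochondrial alanine transaminase, was at 55.6, 61.8, 156 and 46.9 CPM. In all of them control replicate 3 lay near the INK128 libraries. Cth, which makes cysteine from cystathionine, differed: it was at 2.63, 3.17, 10.2 and 16.4 CPM, with both controls above both INK128 libraries (log2 fold change -2.14, SE 0.41, edgeR adjusted p = 0.0599 among genes above a mean CPM of 1, DESeq2 adjusted p = 0.000594).

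Gldc, the glycine-cleaving decarboxylase, had the lowest log2 fold change in the folate list, from 0.537 and 0.598 CPM with INK128 to 8.24 and 54.3 CPM in the controls (-5.77, SE 1.11, edgeR adjusted p = 0.0516, DESeq2 adjusted p = 3.07e-08), and its value was -3.84 without control replicate 3. The sum of the kidney tubule markers lay in the same order of libraries, as did Slc34a1, a phosphate transporter of the proximal tubule, at 7.03, 22.4, 241 and 510 CPM. Not every marker did. Of the 25 markers 22 were highest in control replicate 3, beside 29.9% of all genes tested. In 23 both INK128 libraries lay below both controls, beside 34.0%, and in 1 both lay above, beside 34.5%. The part of the kidney tubule markers in the Gldc values was not tested. Gatm, an arginine transamidinase abundant in kidney, was at 56.3, 60.1, 459 and 181 CPM.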
